A study of Mus musculus with 8 samples.

Results

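The genes described here are 34 genes of glucose metabolism, chosen by symbol for their roles, out of 23467 genes in the deposited table. They fall into 4 groups by role. There were 19 genes of glycolysis and sugar or lactate transport, called ubiquitous below, and 5 genes of sugar handling whose products are typical of liver. A further 6 were genes of gluconeogenesis and 4 genes of glycogen metabolism. The ubiquitous group also holds isoforms typical of tissues other than liver, among them Eno2, Aldoc, Pfkm and Ldhb. All 34 were listed, and all averaged 1 RPKM or more, the limit set for testing. RPKM divides the reads of a gene by the length of its transcript and the depth of sequencing, so that levels of different genes can be set side by side.

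RNA was sequenced from mouse hepatoblasts, the progenitors of hepatocytes and biliary epithelial cells (BECs), isolated from E14.5 livers of a mixed B6;129 strain and grown with serum, growth factors, insulin and dexamethasone. Control cells were wild type. L1L2_Alb cells were Lats1-/-, in the germ line, and Lats2 fl/fl with Alb-cre, a recombinase driven by the albumin promoter, so that Lats2 can be lost only in cells in which that promoter has been active. Undifferentiated hepatoblasts are called iHBs. Cells given Oncostatin M at 12.5 ng per ml for 5 days by the labels are called iHPs (in vitro hepatocytes), and cells kept on Matrigel for 14 days are called iBECs (in vitro BECs). There were 8 libraries, with 1 control library at each of the 3 stages, 1 L1L2_Alb library of iHBs, and 2 each of L1L2_Alb iHPs and iBECs. The labels do not say whether the libraries of a pair came from separate cultures, so the spread within a pair may be technical. P-values for genotype and for stage rest on that spread together with how alike the genotype effect is across the stages, each with 1 control.

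Several facts of the whole series bear on the values below. Depth was 18436865 to 33229075 reads per library. The targeted genes were not lower in the libraries labelled L1L2_Alb, since the fitted value of Lats1 lay above 0 (log2 fold change 0.44, standard error 0.335, adjusted p = 0.46, limma) and Lats2 was higher (log2 fold change 0.90, standard error 0.203, adjusted p = 0.0312, limma). A level over the whole gene does not show whether its deleted part is present, and L1L2_Alb below stands for the libraries so labelled. Hepatocyte markers were present in every library, with a summed level of 9141 to 12404 RPKM over 8 markers in the controls and 8097 to 13248 RPKM in the L1L2_Alb libraries. 4 of the 8, Alb, Apoa2, Ttr and Hnf4a, were called lower and 0 higher. Most of the sum in L1L2_Alb iHB was Apoa1 (8670 of 13248 RPKM), so the sum does not show each marker. Apoa1 was higher there than in control iHB (2451 RPKM) and in both iHP libraries (8351 and 6225 against 4249 RPKM). In iBECs it was lower (4170 and 2889 against 4404 RPKM). Cps1 (2.24 against 85.04 RPKM in iHBs) and Tat were lower in L1L2_Alb iHB and both iHP libraries. In iBECs both were higher in iBEC 1 and lower in iBEC 2. The control iBEC library goes against its label in part, since Krt7 (62.3 RPKM), Krt19 (83.7 RPKM) and Epcam (2.96 RPKM) were lower there than in control iHB (399.6, 273 and 55 RPKM), while Alb was higher (6162 against 2485 RPKM). It was kept as labelled, and fits without iBECs are given where they change a call. The L1L2_Alb iBEC libraries differed from L1L2_Alb iHB in the same direction in Krt7 (319 and 568 against 1470.2 RPKM) and Krt19 (254 and 355 against 400 RPKM). Alb was again higher (5499 and 3357 against 524 RPKM), while Epcam was not lower (25.9 and 21.1 against 20.8 RPKM). The summed level of 8 mesenchymal markers was 2648 to 4649.7 RPKM in the controls and 737 to 3711 RPKM in the L1L2_Alb libraries, and that of 7 macrophage markers was 1410.2 to 2592 and 935 to 3594 RPKM. The mesenchymal sum was lower in L1L2_Alb iHB (1630.4 against 4649.7 RPKM) and in both iHP libraries (737 and 1194 against 2878 RPKM), and in iBECs it was 3711 and 1664 against 2648 RPKM. No defining marker of these lists was at 0 in every library. Neither list had a gene called between the genotypes. The summed level of 6 biliary markers was 2589 to 23475 RPKM in the controls and 2482 to 11819 RPKM in the L1L2_Alb libraries, and of the 6 Krt7 and Krt19 were called higher and Spp1 lower. Krt7 was at 1470.2 RPKM in L1L2_Alb iHB and at 1361 and 1167 RPKM in the iHP libraries, against 399.6 and 361 RPKM in the controls. In iBECs it was at 319 and 568 against 62.3 RPKM, so that it was higher in each of the 5 L1L2_Alb libraries, as were 22.9% of all genes tested. G6pc, Fbp1, Pcx and Pklr were lower in each of these 5, as were 10.1% of all genes tested. The part of these 3 lists in the results below was not tested.

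Glycolysis breaks glucose down to pyruvate, which can be turned into lactate, and gluconeogenesis runs most of the same steps in reverse with a few enzymes of its own at the irreversible steps. The liver is the main organ that does both, and it also stores glucose as glycogen and releases free glucose to the blood through glucose-6-phosphatase. Several steps have isoforms, of which liver uses particular ones, while fetal, proliferating and many other cells use the ubiquitous ones.

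The glucose transporter gene Slc2a1 was higher in L1L2_Alb cells, while the gluconeogenic genes G6pc, Fbp1 and Pcx and the liver pyruvate kinase gene Pklr were lower. These 5 of the 34 genes passed the test, 1 higher and 4 lower. The 4 became 5 with upper-quartile scaling, 6 with quantile normalization and 8 without iBECs. Other alternatives lowered the count. Pklr and G6pc lost their calls with no filter on low values and with pairs averaged. Without iHBs only Fbp1 of the 4 kept its call, and without iHPs each of the 5 genes lost its call. The effect of genotype was the change common to the 3 stages. It was estimated by limma from log2(RPKM + 1), with a term for stage, and called at a Benjamini-Hochberg adjusted p under 0.05 over 13421 genes. Over all genes tested, 9.57% were called, 6.2% higher and 3.37% lower, and the 64.8% of calls that were higher became 51.6% with upper-quartile scaling. Without iBECs the balance over all genes also turned, with 545 genes called higher and 904 lower (6.8% of the 13300 tested), and calls without iBECs below are to be read against that share. The median log2 fold change was 0.12 over the 19 ubiquitous genes, -0.35 over the 5 liver-type genes, -1.20 over the 6 gluconeogenic genes and -0.49 over the 4 glycogen genes, against 0.06 over all genes tested. The fitted value was below 0 in all 15 genes of the last 3 groups, also with upper-quartile scaling, with quantile normalization and with a pseudocount of 0.1, although 4 of the 15 were called and the values of Gys1 and Pfkfb1 turned in some fits that left out libraries. In the ubiquitous group 12 values were above 0 and 7 below, which became 10 and 9 with upper-quartile scaling. In bulk RNA, fewer cells of a type and less RNA per cell cannot be told apart.

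**Figure D1:**
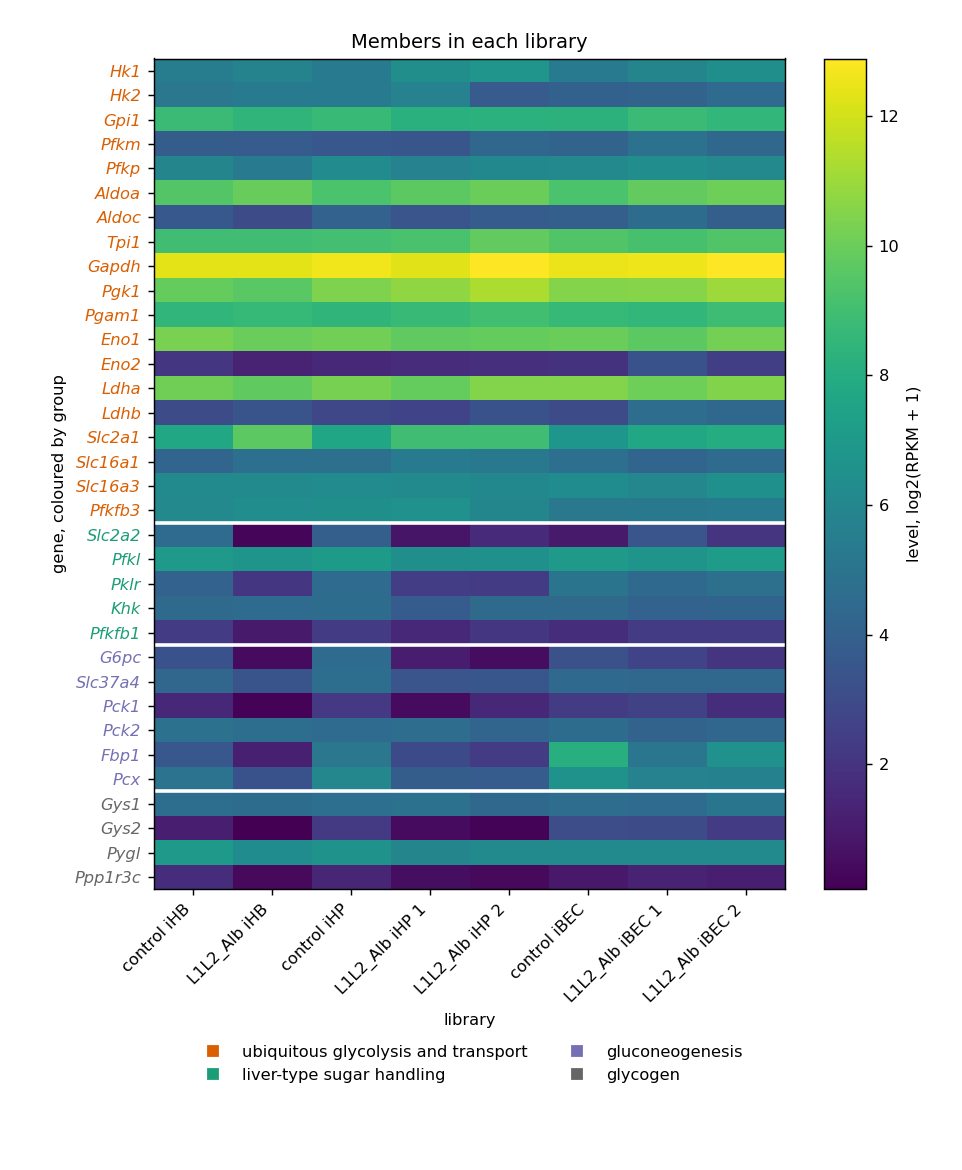
Level of each of the 34 genes (rows, gene names coloured by group, white lines between the groups) in each of the 8 libraries (columns) as log2(RPKM + 1), from dark (low) to yellow (high). Gapdh is highest at 5039.8 to 7574 RPKM, while Slc2a2, Pklr, G6pc, Fbp1, Pcx and Gys2 are darker in the L1L2_Alb iHB and iHP libraries than in their controls.

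**Figure D2:**
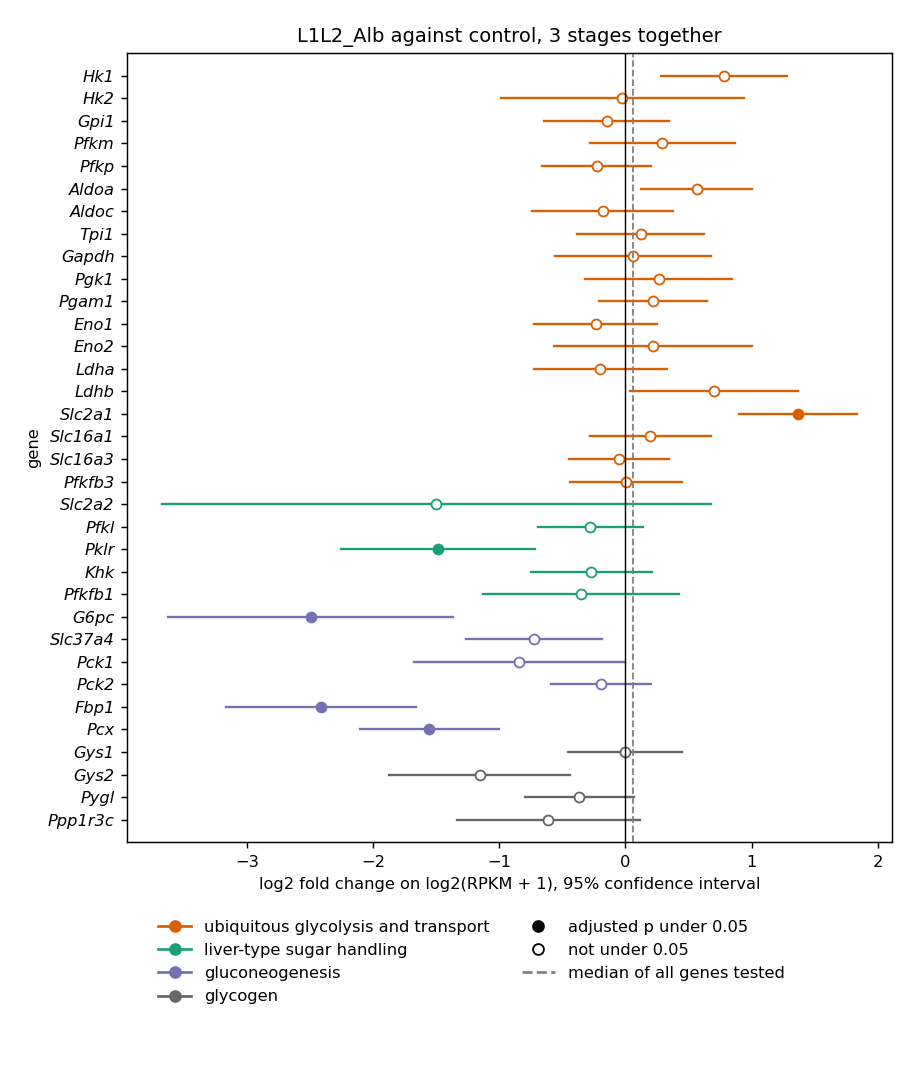
Log2 fold change of L1L2_Alb against control for the 34 genes, with 95% confidence intervals from limma, coloured by group. Filled points are the 5 genes with an adjusted p under 0.05, and the dashed line is the median of all genes tested (0.06). The 15 liver-type, gluconeogenic and glycogen genes have points below 0, from -2.50 in G6pc to -0.005 in Gys1.

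In the sentences that follow, values of the controls are in the order iHB, iHP and iBEC, and values of the L1L2_Alb libraries in the order iHB, iHP 1, iHP 2, iBEC 1 and iBEC 2. Slc2a1, which encodes the ubiquitous glucose transporter GLUT1, was at 215, 197 and 112 RPKM in the controls and at 802, 493, 491, 205 and 256 RPKM in the L1L2_Alb libraries. It was higher than its control in 5 of 5 libraries, by 3.73-fold in iHBs, 2.5- and 2.49-fold in iHPs, and 1.84- and 2.29-fold in iBECs, and within each stage the genotypes did not overlap. Of the 34 genes 3 were higher in each of the 5 libraries, as were 22.9% of all genes tested. The change passed the test (log2 fold change 1.37, standard error 0.204, adjusted p = 0.00764, limma) and lost its call in 1 of 14 alternatives, the fit without iHPs (1.40, adjusted p = 0.0835).

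The hexokinases trap glucose in the cell as glucose 6-phosphate. Hk1, the isoform of most tissues, was at 44.9, 41.6 and 41.3 RPKM in the controls and at 55.4, 83.4, 105, 58.9 and 85.4 RPKM in the L1L2_Alb libraries. It was thus higher than its control in 5 of 5 libraries, and the difference did not pass the test (log2 fold change 0.78, standard error 0.217, adjusted p = 0.0602, limma). Hk2, the inducible isoform of muscle and growing cells, was at 34.2, 38.6 and 15.4 RPKM in the controls and at 40.5, 52.1, 12.4, 16.9 and 22.5 RPKM in the L1L2_Alb libraries. The libraries of the iHP pair disagreed, with iHP 2 below its control and iHP 1 above it, and the fitted value of -0.03 turned to 0.33 without L1L2_Alb iHP 2.

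Phosphofructokinase commits sugar to glycolysis. The platelet isoform Pfkp was at 59.2, 75.2 and 67.4 RPKM in the controls and at 40.3, 52.7, 64.4, 82.2 and 67.8 RPKM in the L1L2_Alb libraries, with overlapping genotypes (log2 fold change -0.23, standard error 0.189, adjusted p = 0.503, limma). Pfkfb3 encodes an enzyme that makes the activator of phosphofructokinase and was at 68.5, 87.1 and 36.5 RPKM in the controls and at 80.6, 94.4, 60.8, 37 and 37.9 RPKM in the L1L2_Alb libraries. The 3 iBEC libraries lay below the other 5, and its fitted genotype value of 0.004 turned below 0 with both other scalings.

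Enolase and lactate dehydrogenase act near the end of the pathway. Eno1, the ubiquitous enolase, was at 1278, 1134 and 1018 RPKM in the controls and at 1011, 862, 942, 805 and 1173 RPKM in the L1L2_Alb libraries, and Eno2, the enolase of neurons, at 3.33, 1.82 and 2.83 RPKM in the controls and at 1.44, 2.27, 2.5, 8.97 and 4.45 RPKM in the L1L2_Alb libraries. Neither passed the test (log2 fold change -0.24, standard error 0.212, adjusted p = 0.537 and log2 fold change 0.21, standard error 0.343, adjusted p = 0.748, limma). Ldha, the subunit that favours making lactate, was at 1092, 1227 and 1453 RPKM in the controls and at 874, 936, 1449, 1082 and 1409.8 RPKM in the L1L2_Alb libraries. It was lower than its control in 4 of 5 libraries without passing the test (log2 fold change -0.20, standard error 0.230, adjusted p = 0.644, limma). Ldhb, the heart-type subunit, was at 6.97, 6.06 and 7.3 RPKM in the controls and at 9.59, 5.26, 8.69, 24.2 and 20.4 RPKM in the L1L2_Alb libraries. Both L1L2_Alb iBEC libraries stood above the other 6, and the fit gave log2 fold change 0.70, standard error 0.291, adjusted p = 0.17 (limma).

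Lactate crosses the membrane through monocarboxylate transporters. Slc16a1 (MCT1) was at 17.8, 26.6 and 25.5 RPKM in the controls and at 25.9, 38, 37.6, 18.1 and 22.1 RPKM in the L1L2_Alb libraries. Slc16a3 (MCT4), the transporter of highly glycolytic cells, was at 70.1, 75 and 78.1 RPKM in the controls and at 71.8, 72.3, 65.9, 63.2 and 89.9 RPKM in the L1L2_Alb libraries, the narrowest spread of the 34 genes. Neither passed the test (log2 fold change 0.20, standard error 0.209, adjusted p = 0.612 and log2 fold change -0.05, standard error 0.173, adjusted p = 0.889, limma).

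The other 8 ubiquitous genes did not pass the test. Aldoa, the aldolase of muscle and most other tissues, came closest (log2 fold change 0.57, standard error 0.193, adjusted p = 0.106, limma), with 615 to 708 RPKM in the controls and 821 to 1055 RPKM in the L1L2_Alb libraries, and higher than its control in 5 of 5 libraries. Gapdh, often used as a reference gene, ranged over 5039.8 to 7574 RPKM, with a fitted value of 0.06 (95% interval -0.56 to 0.68) that turned below 0 with upper-quartile scaling. The phosphoglycerate kinase gene Pgk1 ranged over 791 to 2546 RPKM, highest in both L1L2_Alb iHP 2 and iBEC 2 and lowest in L1L2_Alb iHB. The isomerase genes Gpi1 (298 to 451 RPKM) and Tpi1 (494 to 886 RPKM) and the mutase gene Pgam1 (356 to 514 RPKM) were abundant in all libraries. The muscle phosphofructokinase Pfkm (10.3 to 27.6 RPKM) and the brain aldolase Aldoc (7.43 to 23.3 RPKM) were lower. The fitted values of Gpi1, Tpi1, Pgk1, Pgam1, Pfkm and Aldoc lay between -0.18 and 0.29.

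Among the liver-type genes, Pklr, the pyruvate kinase of liver and red cells, was at 16.4, 22.6 and 31.1 RPKM in the controls and at 3.25, 4.29, 4.18, 20.7 and 26.6 RPKM in the L1L2_Alb libraries. It was lower than its control in 5 of 5 libraries, as were 6 of the 34 genes and 10.1% of all genes tested. In iHBs and iHPs it was 5.06-, 5.26- and 5.4-fold lower, and in iBECs 1.5- and 1.17-fold lower. The change passed the test (log2 fold change -1.49, standard error 0.335, adjusted p = 0.0314, limma) but held its call in 8 of 14 alternatives. The adjusted p was 0.067 without L1L2_Alb iHP 1, 0.0594 without L1L2_Alb iHP 2, 0.154 without iHBs and 0.25 without iHPs. The summed level of 5 erythroid markers, which mark the other cells that use this enzyme, was 108, 69.5 and 2.55 RPKM in the controls and 22.0, 6.72, 15.6, 1.57 and 3.09 RPKM in the L1L2_Alb libraries, and its part in the lower Pklr was not tested.

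Slc2a2 encodes GLUT2, the glucose transporter of hepatocytes, and was at 22.5, 14.3 and 0.984 RPKM in the controls and at 0.244, 0.76, 2.17, 10.1 and 3.0 RPKM in the L1L2_Alb libraries. In iHBs and iHPs the L1L2_Alb libraries were lower than their controls, by 92-fold in iHB (18 reads against 1643) and 18.8- and 6.57-fold in iHPs. In iBECs they were higher, by 10.2- and 3.05-fold, against 84 reads in control iBEC. The common change did not pass the test (log2 fold change -1.50, standard error 0.949, adjusted p = 0.367, limma), and without iBECs it was -3.35 with an adjusted p of 0.00649. The test of a difference between stages gave Slc2a2 an unadjusted p of 0.00103, the lowest of the 34 genes, and an adjusted p of 0.345 over all genes (limma).

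The other 3 liver-type genes did not pass the test. Pfkl, the liver phosphofructokinase, was at 122, 129.9 and 125 RPKM in the controls and at 103, 88.1, 91, 104 and 141 RPKM in the L1L2_Alb libraries (log2 fold change -0.28, standard error 0.180, adjusted p = 0.379, limma). Pfkfb1, the liver form of the enzyme that makes or removes the activator of phosphofructokinase, was at 4.04, 4.07 and 2.41 RPKM in the controls and at 1.03, 1.8, 3.33, 3.95 and 4.07 RPKM in the L1L2_Alb libraries. It was lower in L1L2_Alb iHB and iHP than in their controls and higher in iBEC, and its fitted value of -0.35 became 0.005 without iHBs. Khk, which starts fructose breakdown, ranged over 13 to 23.2 RPKM with a fitted value of -0.27.

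Of the 6 gluconeogenic genes, 3 were called, all lower. G6pc, the catalytic subunit of glucose-6-phosphatase that makes free glucose, was at 8.76, 22.5 and 8.54 RPKM in the controls and at 0.357, 1.04, 0.397, 5.34 and 2.95 RPKM in the L1L2_Alb libraries. In reads these were 560, 1414 and 637 in the controls and 23, 43, 19, 310 and 158 in the L1L2_Alb libraries, well above the floor of 3 reads. It was lower than its control in 5 of 5 libraries, as were 10.1% of all genes tested. The difference was 24.5-fold in iHBs, 21.7- and 56.7-fold in iHPs, and 1.6- and 2.89-fold in iBECs. The change passed the test (log2 fold change -2.50, standard error 0.493, adjusted p = 0.0202, limma), and lost its call in 4 of 14 alternatives, among them the fits without iHBs (adjusted p = 0.103), without iHPs (0.16) and with no filter on low values (0.0673). The difference between stages had an unadjusted p of 0.00768 and an adjusted p of 0.541 (limma).

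Fbp1, the fructose bisphosphatase that reverses the phosphofructokinase step, was at 10.7, 34.9 and 289 RPKM in the controls and at 1.32, 6.86, 3.87, 33.3 and 92.9 RPKM in the L1L2_Alb libraries. It was lower than its control in 5 of 5 libraries, by 8.14-fold in iHBs, 5.08- and 9.0-fold in iHPs and 8.69- and 3.11-fold in iBECs, and was the only one of the 34 genes at least 2-fold lower in each of the 5 libraries, against 0.797% of all genes tested. The change passed the test (log2 fold change -2.42, standard error 0.330, adjusted p = 0.00537, limma) and lost its call in 1 of 14 alternatives, without iHPs (adjusted p = 0.0752).

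Pcx, which encodes the pyruvate carboxylase that starts gluconeogenesis in the mitochondrion, was at 29.7, 63.8 and 96.9 RPKM in the controls and at 8.98, 13.6, 13.2, 52.8 and 51.1 RPKM in the L1L2_Alb libraries. The libraries of each pair agreed closely, and the L1L2_Alb libraries were 3.31-fold lower in iHBs, 4.69- and 4.85-fold in iHPs, and 1.83- and 1.9-fold in iBECs. The change passed the test (log2 fold change -1.55, standard error 0.240, adjusted p = 0.00859, limma) and lost its call in 2 of 14 alternatives, without iHBs (adjusted p = 0.0554) and without iHPs (0.0825).

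The other 3 gluconeogenic genes did not pass the test. Slc37a4, the transporter that brings glucose 6-phosphate to glucose-6-phosphatase, was at 18.6, 25.1 and 20.5 RPKM in the controls and at 9.39, 9.96, 10.2, 19.9 and 19.2 RPKM in the L1L2_Alb libraries (log2 fold change -0.72, standard error 0.235, adjusted p = 0.092, limma). The iBEC libraries of both genotypes were close to each other, and the change was called with quantile normalization (-0.79, adjusted p = 0.0442) and without iBECs (-1.10, adjusted p = 0.0368). Pck1 and Pck2 encode the cytosolic and the mitochondrial forms of the enzyme that makes phosphoenolpyruvate from oxaloacetate. Pck1 was at 1.95, 3.52 and 3.9 RPKM in the controls and at 0.16, 0.373, 1.85, 5.1 and 2.34 RPKM in the L1L2_Alb libraries. It was low throughout and lower than its control in 4 of 5 libraries (log2 fold change -0.84, standard error 0.365, adjusted p = 0.187, limma). Pck2 was at 27.5, 22.3 and 23.3 RPKM in the controls and at 25, 24.4, 18.3, 17.1 and 19.1 RPKM in the L1L2_Alb libraries, with overlapping genotypes (log2 fold change -0.19, standard error 0.173, adjusted p = 0.544, limma).

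Of the 4 glycogen genes, 0 were called with limma, and 1 had an unadjusted p under 0.05. It was Gys2, the glycogen synthase of liver, at 1.22, 3.82 and 7.69 RPKM in the controls and at 0.0525, 0.388, 0.159, 6.89 and 4.12 RPKM in the L1L2_Alb libraries. In iHBs and iHPs these are 92 and 284 reads in the controls against 4, 19 and 9 reads in the L1L2_Alb libraries, which is 23.2-, 9.85- and 24-fold lower, whereas the iBEC values were within 1.87-fold of their control. The common change missed the threshold (log2 fold change -1.16, standard error 0.313, adjusted p = 0.0555, limma) and was called in 4 of 13 alternatives, with an adjusted p of 0.0496 after upper-quartile scaling and 0.0204 without iBECs.

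Gys1, the glycogen synthase of muscle and most other tissues, was at 24.9, 25.7 and 24 RPKM in the controls and at 23.4, 28.7, 19.7, 22.8 and 31.7 RPKM in the L1L2_Alb libraries, with a fitted value of -0.005 (95% interval -0.46 to 0.45). Pygl, the liver phosphorylase that breaks glycogen down, was at 69.3 to 121 RPKM in the controls and 58.2 to 79.2 RPKM in the L1L2_Alb libraries (log2 fold change -0.37, standard error 0.189, adjusted p = 0.264, limma). Ppp1r3c, a subunit that brings protein phosphatase to glycogen, was at 0.922 to 2.31 RPKM in the controls and 0.313 to 1.56 RPKM in the L1L2_Alb libraries. It was 7.39-, 3.78- and 5.29-fold lower in the L1L2_Alb iHB and iHP libraries and higher than its control in both iBEC libraries, did not pass the common test (log2 fold change -0.61, standard error 0.316, adjusted p = 0.268, limma), and without iBECs was called (-1.13, adjusted p = 0.0345).

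**Figure D3:**
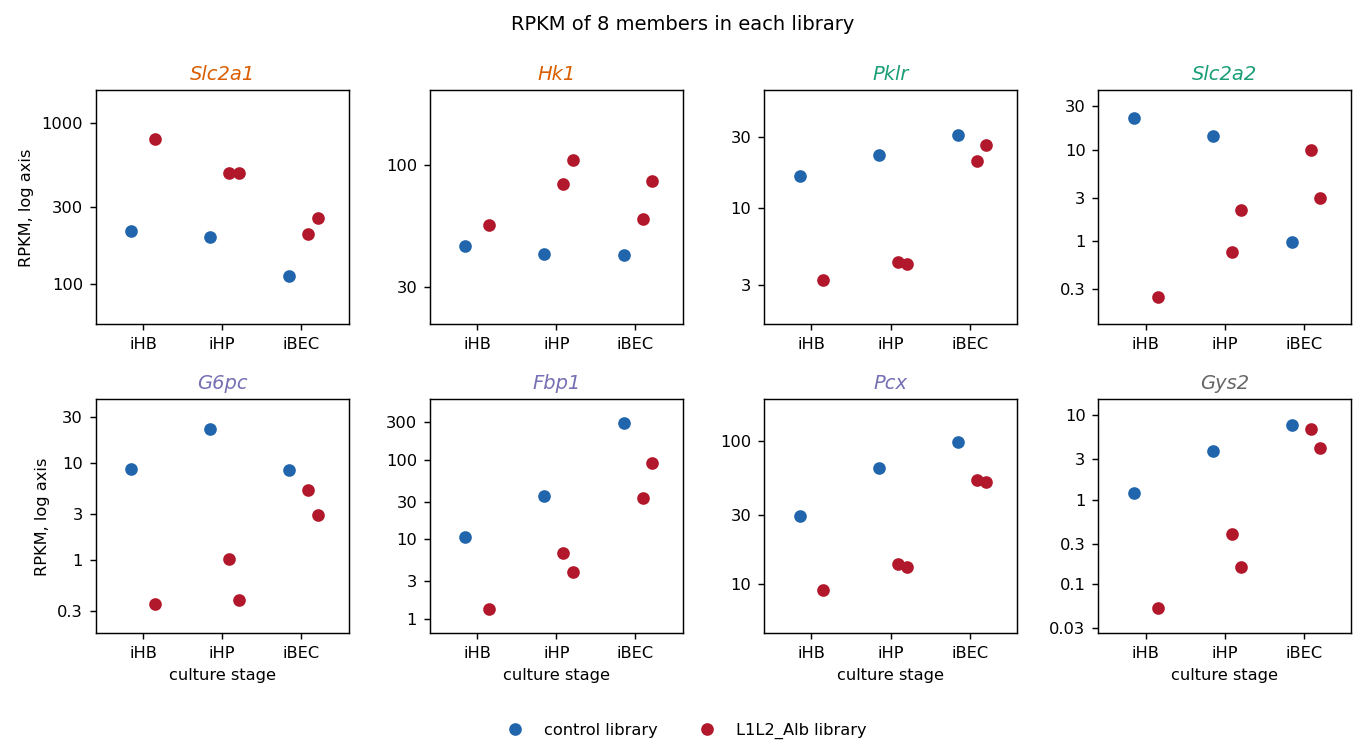
RPKM (log axis) of 8 genes in each library by culture stage, with control libraries in blue and L1L2_Alb libraries in red, 1 point per library. Slc2a1 and Hk1 are higher in each L1L2_Alb library than in the control of its stage, Pklr, G6pc, Fbp1, Pcx and Gys2 are lower, and Slc2a2 is lower in iHBs and iHPs and higher in iBECs.

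Each L1L2_Alb library was also set against the control of its own stage. On this scale the median log2 difference of the 6 gluconeogenic genes was -1.48 in L1L2_Alb iHB, -1.94 and -1.71 in the iHP libraries and -0.51 and -0.73 in the iBEC libraries, where the median of all genes tested was -0.09, 0.01, -0.03, 0.22 and 0.26. In the 5 liver-type genes it was -1.31, -0.86, -0.51, -0.27 and 0.17, and in the 4 glycogen genes -0.84, -0.83, -0.75, -0.03 and 0.13. In the 19 ubiquitous genes it was between 0.02 and 0.31 in the 5 libraries. Differences of at least 2-fold were counted on the scale log2(RPKM + 1). Of the 34 genes, 9 were at least 2-fold lower and 1 at least 2-fold higher in iHBs, where 8.99% and 5.6% of all genes tested were. In both iHP libraries 7 were lower and 1 higher by this measure, against 8.26% and 4.64%, and in both iBEC libraries 1 was lower and 2 higher, against 1.62% and 4.19%. In all 5 libraries 0 of the 34 were at least 2-fold higher, against 1.56%. By the ratio of RPKM, Eno2 in iHBs and Ppp1r3c in both iHP libraries were also at least 2-fold lower. Hk1 was by that ratio at least 2-fold higher in both iHP libraries. These differences from a single control per stage have no replicate check. The test of whether the effect of genotype differed between the stages called 0 of the 34 genes and 0 of all 13421 (limma F test, 733 at an unadjusted p under 0.05), with 2 residual degrees of freedom.

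The stretch of 250 bases upstream of the start of transcription is shown for Slc2a1, the gene called higher, and for G6pc and Fbp1, which had the lowest fitted values. The sequences are those of RefSeq (GRCm38.p6), read 5′ to 3′ on the strand of the gene, and end at the base before the annotated start. Slc2a1 lies at chr4:119108495-119108744, plus strand, G6pc at chr11:101367466-101367715, plus strand and Fbp1 at chr13:62888283-62888532, minus strand. Capitals mark matches to 2 motifs, ACGTG (the core of the hypoxia response element) in Slc2a1 and GTTAAT (a core of the site of the factor HNF1) in G6pc, and Fbp1 held no match.
Slc2a1: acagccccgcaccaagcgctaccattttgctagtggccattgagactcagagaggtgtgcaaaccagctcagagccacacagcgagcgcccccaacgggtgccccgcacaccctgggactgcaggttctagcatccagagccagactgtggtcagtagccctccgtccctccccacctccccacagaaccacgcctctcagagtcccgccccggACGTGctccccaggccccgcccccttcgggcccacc
G6pc: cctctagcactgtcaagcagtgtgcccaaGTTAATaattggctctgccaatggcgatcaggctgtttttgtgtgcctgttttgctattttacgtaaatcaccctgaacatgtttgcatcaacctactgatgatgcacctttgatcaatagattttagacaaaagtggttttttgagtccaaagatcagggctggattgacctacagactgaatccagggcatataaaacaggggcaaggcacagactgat
Fbp1: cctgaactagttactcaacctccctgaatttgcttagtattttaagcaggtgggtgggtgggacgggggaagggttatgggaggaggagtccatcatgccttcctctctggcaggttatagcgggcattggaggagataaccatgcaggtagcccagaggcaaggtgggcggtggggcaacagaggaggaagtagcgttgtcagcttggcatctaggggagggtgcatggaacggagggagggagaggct

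Both strands of this window were searched at 51 starts of 33 of the 34 genes, since Gys2 had no entry, and at 32851 starts of all genes. ACGTG was found at 17 of the 51 starts, in 14 genes (Aldoa, Hk2, Khk, Ldha, Pcx, Pfkfb3, Pfkm, Pgam1, Pgk1, Ppp1r3c, Pygl, Slc16a1, Slc16a3 and Slc2a1), and at 16.6% of all starts. It overlaps its own reverse complement where a C precedes it. The HNF1 motif GTTAAT was found at 4 of the 51 starts, in G6pc, Khk, Pck1 and Pfkfb1, and at 6.43% of all starts. The letters GGAATG, bound by TEAD factors, through which YAP and TAZ act, were found at 5 of the 51 starts, in Aldoa, Aldoc, Eno1 and Eno2, and at 12.6% of all starts. The letters CAAAGTCCA, bound by HNF4A, were found at 0 of the 51 and 0.384% of all starts, TGTTTAC, bound by FOXA factors, at 1 (Aldoc) and 3.17%, and the cyclic AMP response element TGACGTCA at 1 (Ldha) and 1.55%. A match is a match of letters and not a measured site.

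A ratio of the RPKM of paired genes within a library does not depend on the scaling between libraries. The ratios compare 2 levels per length. Differences are those of log2((RPKM + 1) / (RPKM + 1)) between an L1L2_Alb library and the control of its stage, described without a test. With the added 1 the differences do depend on that scaling, most where a gene is low. The means, SDs and counts of libraries below are of these differences. The 5 differences use 3 controls, so that the SD is not one of independent pairs. Hk2 over G6pc sets the enzyme that traps glucose against the one that frees it. The ratio of RPKM was 3.9, 1.72 and 1.81 in the controls and 113, 50.2, 31.3, 3.17 and 7.63 in the L1L2_Alb libraries, a mean difference of 2.41 (SD 1.24, n = 5), higher in 5 of 5 libraries. Pfkp over Fbp1 sets the committed step against its reverse. That ratio was 5.51, 2.16 and 0.233 in the controls and 30.5, 7.69, 16.6, 2.47 and 0.73 in the L1L2_Alb libraries, a mean difference of 2.23 (SD 0.76, n = 5), also higher in 5 of 5. In control iBEC and L1L2_Alb iBEC 2 it was below 1, as Fbp1 RNA exceeded Pfkp RNA there.

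The ubiquitous over the liver transporter, Slc2a1 over Slc2a2, was 9.57, 13.8 and 114 in the controls and 3284, 648, 226, 20.4 and 85.1 in the L1L2_Alb libraries. With 1 added to each RPKM it was higher in the L1L2_Alb libraries by 2.54 on the log2 scale (SD 3.18, n = 5), in 4 of 5, with iBEC 1 below its control. As a ratio of RPKM it was below its control in iBEC 2 as well. The direction in iBEC 2 thus rests on the added 1, with Slc2a2 at 0.984 RPKM in control iBEC. Gys1 over Gys2, the general over the liver glycogen synthase, was 20.5, 6.72 and 3.12 in the controls and 446, 74, 124, 3.31 and 7.69 in the L1L2_Alb libraries, a difference of 1.17 (SD 0.73, n = 5) in 5 of 5 that grew to 2.22 with a pseudocount of 0.1. Pck2 over Pck1 was 14.1, 6.33 and 5.98 in the controls and 156, 65.5, 9.9, 3.35 and 8.14 in the L1L2_Alb libraries, a difference of 0.60 (SD 0.99, n = 5), so that its SD was larger than its mean.

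Pfkp over Pfkl was 0.486, 0.579 and 0.538 in the controls and 0.391, 0.598, 0.708, 0.793 and 0.482 in the L1L2_Alb libraries, a difference of 0.09 (SD 0.34, n = 5), and Pfkl was thus the more abundant of them in every library. Pfkfb3 over Pfkfb1 was 17, 21.4 and 15.1 in the controls and 78, 52.6, 18.3, 9.36 and 9.32 in the L1L2_Alb libraries, a difference of 0.24 (SD 0.96, n = 5). Ldha over Ldhb was 157, 202 and 199 in the controls and 91.1, 178, 167, 44.8 and 69.3 in the L1L2_Alb libraries, a difference of -0.92 (SD 0.79, n = 5), lower in 5 of 5 libraries and lowest in iBECs. Hk2 over Hk1 was 0.762, 0.929 and 0.374 in the controls and 0.731, 0.625, 0.118, 0.287 and 0.264 in the L1L2_Alb libraries. The difference was -0.88 (SD 1.14, n = 5), also lower in 5 of 5. Its SD was larger than the size of its mean, and L1L2_Alb iHP 2 lay furthest from its control. Slc16a3 over Slc16a1 was 3.94, 2.82 and 3.06 in the controls and 2.77, 1.9, 1.75, 3.5 and 4.06 in the L1L2_Alb libraries, a difference of -0.23 (SD 0.48, n = 5). Eno1 exceeded Eno2 in every library, with a ratio of Eno1 to Eno2 of 384, 623 and 360.2 in the controls and 700.1, 380.2, 377, 89.7 and 264 in the L1L2_Alb libraries, and Eno2 over Eno1 differed by 0.55 (SD 0.79, n = 5).

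**Figure D4:**
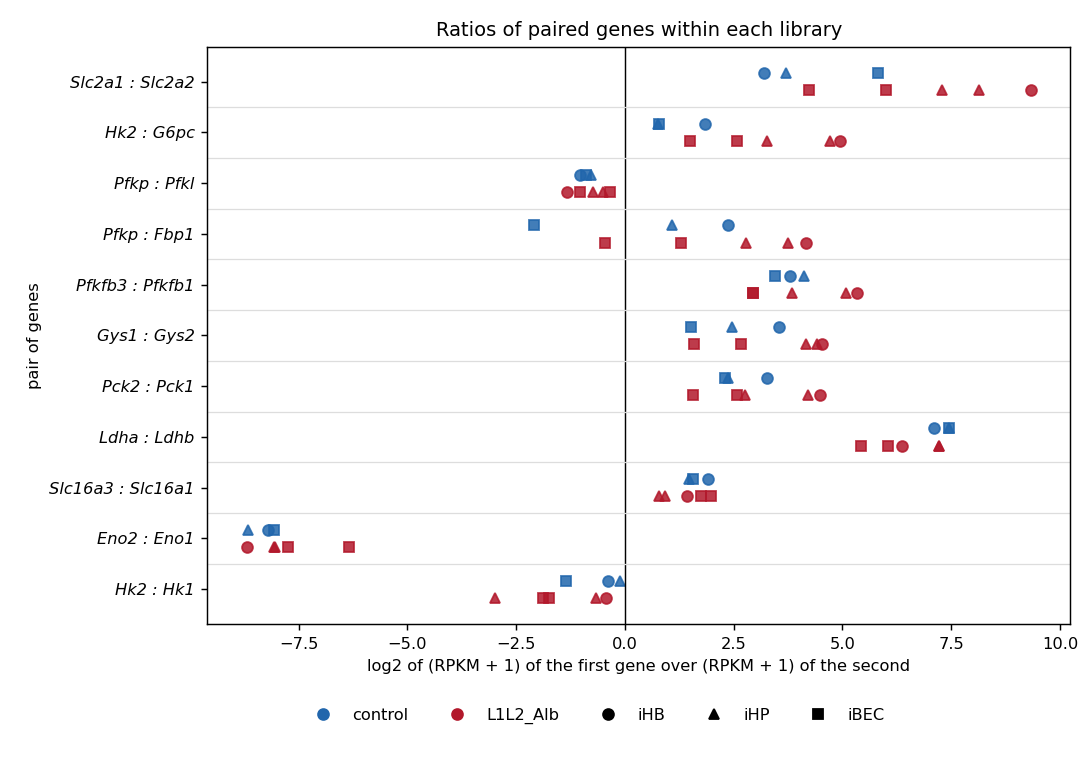
Log2 ratio of the RPKM + 1 of paired genes within each library, with controls in blue (upper row of each pair), L1L2_Alb libraries in red (lower row) and the stage given by the symbol. The red points of Hk2 : G6pc, Pfkp : Fbp1 and Gys1 : Gys2 lie to the right of the control of the same stage, and those of Ldha : Ldhb and Hk2 : Hk1 to the left.

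The stages were compared in the same fit with both genotypes together, and they share libraries with each other and with the genotype effect. In iBECs against iHBs, Fbp1, Gys2, Pcx and Pklr were higher and Slc2a1 was lower. These are 5 of the 34 genes, where 5.72% of all genes tested were called, 2.94% higher and 2.78% lower. With upper-quartile scaling the 395 higher and 373 lower calls became 505 and 182. The median of all genes in this comparison was -0.25, and -0.003 after that scaling, so that values are to be read against it. Fbp1 changed most, with a log2 fold change of 4.63 (95% interval 3.69 to 5.57, adjusted p = 0.0012, limma). The control value in iBECs was 289 RPKM against 10.7 RPKM in iHBs, and the L1L2_Alb values were 33.3 and 92.9 RPKM against 1.32 RPKM. Gys2 changed by 2.40 (95% interval 1.5 to 3.3, adjusted p = 0.0113), Pcx by 2.15 (95% interval 1.46 to 2.84, adjusted p = 0.00596) and Pklr by 1.89 (95% interval 0.93 to 2.84, adjusted p = 0.0376). Fbp1, Gys2 and Pcx kept their calls in each of the 10 or 11 alternatives run for them, and Pklr in 6 of 11, losing it without L1L2_Alb iHP 1, iBEC 1 or iBEC 2. Slc2a1 changed by -1.43 (95% interval -2.01 to -0.84, adjusted p = 0.0171) and lost its call with upper-quartile scaling. G6pc (1.19, 95% interval -0.23 to 2.6) and Pck1 (1.47, 95% interval 0.42 to 2.51) did not pass the test. As given above, the iBEC libraries of both genotypes held less Krt7 and Krt19 and more Alb than the iHB library of their genotype. The summed level of 6 biliary markers in control iBEC was 23475 RPKM, most of it Spp1 (23271 RPKM).

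**Figure D5:**
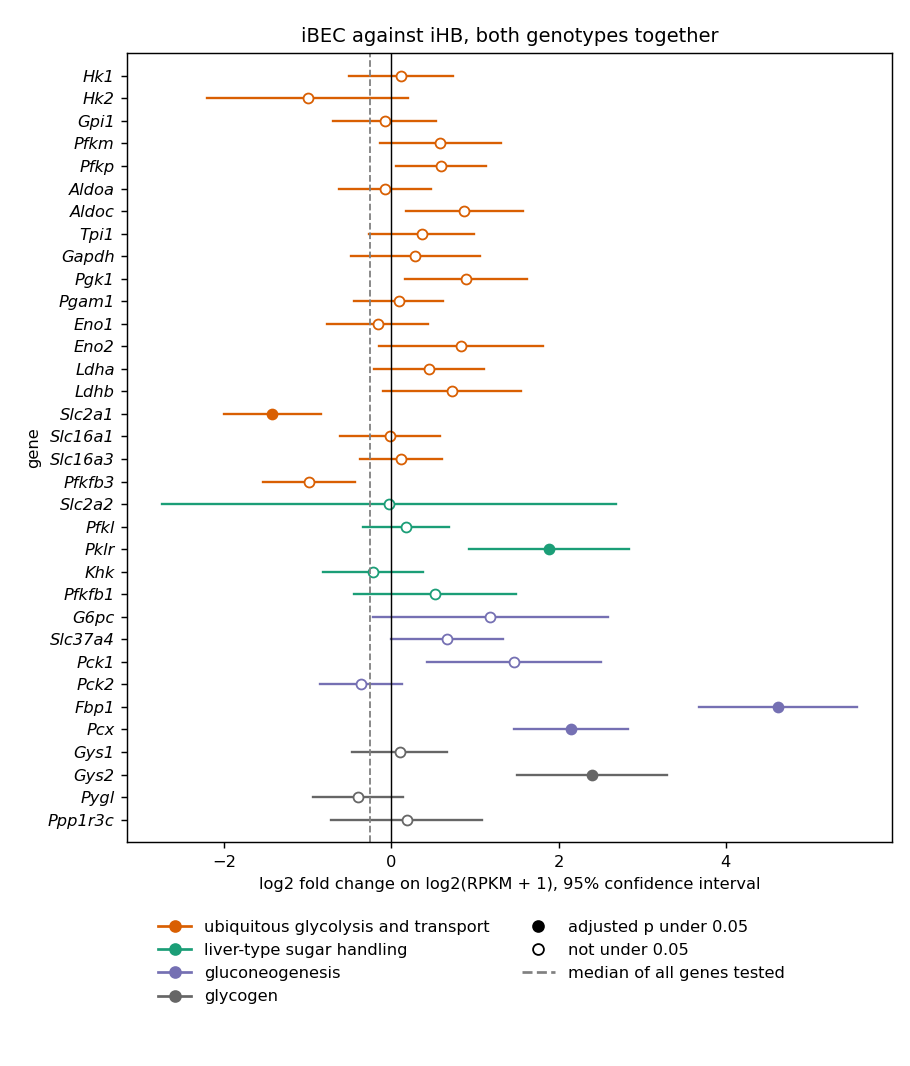
Log2 fold change of iBECs against iHBs for the 34 genes, with both genotypes together and 95% confidence intervals from limma, coloured by group. Filled points have an adjusted p under 0.05, and the dashed line is the median of all genes tested (-0.25). Fbp1 (4.63), Gys2, Pcx and Pklr lie to the right and Slc2a1 (-1.43) to the left.

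In iBECs against iHPs, Fbp1 (3.14, adjusted p = 0.00725), Gys2 (1.83, 0.0292) and Pcx (1.45, 0.0269) were higher, and Pfkfb3 (-1.08, 0.0335) and Slc2a1 (-1.0, 0.0489) lower (limma), where 4.12% of all genes were called, 2.45% higher and 1.67% lower. With upper-quartile scaling the 329 higher and 224 lower calls became 461 and 169. Fbp1 kept its call in 13 of 13 alternatives, Pcx in 8, Gys2 in 6 of 12, Pfkfb3 in 4 of 13 and Slc2a1 in 1 of 13. The calls of Pcx, Gys2 and Pfkfb3 were lost without L1L2_Alb iHP 1, iBEC 1 or iBEC 2, and that of Slc2a1 without any 1 of the 4 paired libraries. Pklr missed the threshold (1.63, adjusted p = 0.0502).

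In iHPs against iHBs, 0 of the 34 genes and 0.0% of all genes were called by limma, where 1158 of all genes and 3 of the 34 had an unadjusted p under 0.05. With upper-quartile scaling 2 of all genes were called. The 3 were Fbp1 (1.49, 95% interval 0.55 to 2.44, adjusted p = 0.411), Pgk1 (1.04, 95% interval 0.31 to 1.78, adjusted p = 0.424) and Pcx (0.70, 95% interval 0.01 to 1.39, adjusted p = 0.57). The median of all genes was -0.15, and -0.03 after upper-quartile scaling. In the controls alone, without a test, the step from iHB to iHP was from 8.76 to 22.5 RPKM in G6pc, from 10.7 to 34.9 RPKM in Fbp1, from 29.7 to 63.8 RPKM in Pcx and from 1.22 to 3.82 RPKM in Gys2. In the L1L2_Alb cells it was from 0.357 to 1.04 and 0.397 RPKM in G6pc, and from 1.32 to 6.86 and 3.87 RPKM in Fbp1.

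Of 55 other genes of sugar metabolism in the table, 49 were tested for the effect of genotype, and 3 were called higher and 3 lower. The calls are 12.2% of the 49, where 9.57% of all genes tested were called, 6.2% higher and 3.37% lower. Pdk4, a mitochondrial kinase that inhibits pyruvate dehydrogenase, was higher (log2 fold change 1.81, standard error 0.336, adjusted p = 0.016, limma), at 29.4, 23.3 and 4.67 RPKM in the controls and at 150.1, 113, 38.7, 20.4 and 16.8 RPKM in the L1L2_Alb libraries. Slc2a3 (GLUT3), a further glucose transporter, was higher (log2 fold change 1.49, standard error 0.268, adjusted p = 0.0143, limma), as was Pfkfb2 (log2 fold change 0.95, standard error 0.204, adjusted p = 0.0269, limma), a relative of Pfkfb1 and Pfkfb3. Both glucose transporters called among these genes and the 34, Slc2a1 and Slc2a3, were thus higher in 5 of 5 libraries. Dak, whose product acts on the trioses from fructose, was lower (log2 fold change -1.10, standard error 0.201, adjusted p = 0.0153, limma). Slc2a3 and Pdk4 lost their calls without iHBs, Dak without iHBs and without iHPs, and Pfkfb2 without L1L2_Alb iBEC 2 and without any 1 stage. Pdk4 and Pfkfb2 also lost their calls with no filter on low values.

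Of 20 regulators of these pathways, 18 were tested, and 1 was called higher and 5 lower. The calls are 33.3% of the 18, against 9.57% of all genes tested, 6.2% higher and 3.37% lower. Those lower were Mlxipl, the glucose-sensing factor that activates Pklr (log2 fold change -1.71, standard error 0.345, adjusted p = 0.0214), the glucagon receptor gene Gcgr (log2 fold change -1.48, standard error 0.301, adjusted p = 0.022), Prox1 (log2 fold change -1.42, standard error 0.257, adjusted p = 0.0147), Hnf4a (log2 fold change -1.33, standard error 0.161, adjusted p = 0.00373) and Creb3l3 (log2 fold change -1.22, standard error 0.232, adjusted p = 0.0174). The products of Prox1, Hnf4a and Creb3l3 are transcription factors of hepatocytes. Foxa2, a factor of early liver development, was higher (log2 fold change 1.18, standard error 0.276, adjusted p = 0.0351, limma, as for the others) and held its call in 5 of 14 alternatives, losing it with upper-quartile scaling (adjusted p = 0.0608), with quantile normalization (0.0623) and without L1L2_Alb iHP 1, iHP 2 or iBEC 2, among others. Mlxipl lost its call without L1L2_Alb iHP 1, and Gcgr without L1L2_Alb iHP 1 or iBEC 2. Without iHPs each of the 5 genes called lower lost its call, and without iHBs Mlxipl, Gcgr, Prox1 and Creb3l3 lost theirs. Mlxipl and Gcgr also lost their calls with no filter on low values, and Mlxipl with pairs averaged.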

How the data were processed

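The 8 RNA libraries were made with TruSeq and sequenced on a HiSeq. The submitters' processing notes name Bowtie 0.12.2 and mm8, and the counting method and annotation are not given in the sources used here. The authors deposited 1 table of normalized values per gene, inferred from whole-read steps of short genes to be RPKM. The steps gave reads per library and, for 26 of the 34 genes, reads per gene, used for depth and a floor of 3 reads and not for a count model. Identical gene copies had their reads split. Of 23471 entries, 4 with duplicate symbols were left out, and 3442 genes were at 0 throughout.

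The 13421 genes that averaged 1 RPKM or more were analysed on the scale log2(RPKM + 1). Linear models with terms for genotype and stage and 4 residual degrees of freedom used limma 3.58.1 under R 4.3.3, with moderated variances that followed a trend in the mean. P-values are two-sided. A fold change on this scale understates that of low genes. Fold changes between single libraries are ratios of RPKM, while counts of genes at least 2-fold apart were taken on log2(RPKM + 1). Tables and figures used Python 3.11.15, pandas 2.3.3 and matplotlib 3.10.9. The procedure was tested on simulated data. Alternatives were a pseudocount of 0.1, upper-quartile scaling, quantile normalization, no filter, a limit of 5 RPKM, no trend, leaving out each paired library or each stage, and averaging pairs. Values in every library are given for genes called or paired, and other genes by their range. Other pathway genes and regulators were named where called, at most 10 by size, apart from those left out. The 34 genes and all lists were chosen with earlier results of these data known. Results of a few further genes, some of the called pathway genes among them, are not reported here. The deposited table holds no positions, and promoter positions are of another build than that named in the notes.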

Additional observations from a re-analysis of the deposited data

How the results depend on the processing

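The effect of genotype was called in 1284 genes, in 686 with no filter on low values, in 326 without iHBs, in 132 without iHPs, in 1449 without iBECs (545 higher and 904 lower, against 832 and 452) and in 792 (without L1L2_Alb iBEC 2) to 1214 genes when 1 paired library was left out. Of the 34 genes, the 4 called lower became 2 with no filter, 2 with pairs averaged, 1 without iHBs, 0 without iHPs and 8 without iBECs, and the 1 called higher became 0 without iHPs. The iHP against iHB count of 0 became 2 with upper-quartile scaling, 4 at a mean of at least 5 RPKM and 0 to 1 with a library left out. The iBEC against iHB count of 768 became 492 with no filter and 493 (without L1L2_Alb iBEC 2) to 1747 (without L1L2_Alb iHP 2) with a library left out. The iBEC against iHP count of 553 became 211 with no filter, 34 with pairs averaged and 155 (without L1L2_Alb iHP 1) to 982 (without L1L2_Alb iHP 2). The titles number the paired L1L2_Alb libraries, and among the 4 of them iBECs against iHPs gave 473 genes without and 906 with a replicate block. Same-numbered libraries did not deviate together (correlation -0.0216 over 13421 genes, 2 pairs). With 2 pairs from different stages this cannot show whether same-numbered libraries share an origin, and the controls carry no number. Genes whose fitted genotype value changed sign were all without a call. Hk2 (-0.0255) became 0.285 without iHPs and -0.269 to 0.326 with a paired library left out, above 0 without L1L2_Alb iHP 2. Without iHPs Gpi1 turned from -0.148 to 0.0633 and Tpi1 from 0.119 to -0.0621. Gapdh (0.0569) became -0.0589 with upper-quartile scaling, -0.0393 without iBECs and -0.0152 to 0.15 with a library left out. Eno2 turned from 0.215 to -0.203 without iBECs and Pfkfb1 from -0.354 to 0.00534 without iHBs, and Slc16a3 (-0.0518) became -0.127 to 0.0233 with a library left out. Pfkfb3 (0.00399) became -0.11 with upper-quartile scaling, -0.211 with quantile normalization, -0.0809 without iHBs, -0.0147 without iBECs and -0.0697 to 0.118 with a library left out. Gys1 (-0.00478) became 0.0265 without iHBs, 0.0524 without iHPs and -0.0897 to 0.0835 with a library left out. The ratio of Gys1 to Gys2 moved from 1.17 to 2.22 with a pseudocount of 0.1, and the other ratios moved by less than their SD. The cause of these changes was not tested. With 1 control per stage, the spread is estimated from the pairs and from how alike the genotype effect is across stages.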

Other observations

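The median absolute log2 difference between L1L2_Alb iHP 1 and iHP 2 was 0.33 over the 34 genes and 0.43 over all 13421 tested, and between iBEC 1 and iBEC 2 it was 0.34 and 0.25. On the scale log2(RPKM + 1), at least 2-fold apart were 2 of the 34 in iHPs (12.1% of all genes) and 2 of the 34 in iBECs (4.98% of all genes). In iHPs these were Hk2, at 52.1 and 12.4 RPKM (5295 and 1460 reads), and Pck1, at 0.373 and 1.85 RPKM (18 and 103 reads). In iBECs they were Fbp1, at 33.3 and 92.9 RPKM (1274 and 3276 reads), and Slc2a2, at 10.1 and 3.00 RPKM (670 and 184 reads). By the ratio of RPKM, further low genes were also more than 2-fold apart. In iHPs these were Slc2a2 (0.76 and 2.17 RPKM), G6pc (1.04 and 0.397 RPKM) and Gys2 (0.388 and 0.159 RPKM). In iBECs they were Pck1 (5.1 and 2.34 RPKM) and Eno2 (8.97 and 4.45 RPKM). The share of all genes by that ratio was not counted.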
